A study of Arabidopsis thaliana with 9 samples.

Results

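Roots fixed after about 1.5 min of level flight were compared with roots fixed right after the microgravity phase of the same jet flight. The comparison takes the 3 arrays of the last-actuated tube and the 3 of the first-actuated tube, 6 of the 9 arrays of the study, and covers all 16550 genes with a single-gene probe set. All groups were whole roots of Arabidopsis thaliana, Wassilewskija background, from seedlings 10 days old and grown in 24 h light. The plants carried pCaMV35S:14-3-3κ:GFP, a GFP fusion of a 14-3-3 protein driven by the broadly active 35S promoter of cauliflower mosaic virus. Seedlings were carried on flight 2 of an F-104 jet in tubes from which the fixative RNAlater is released by hand. The flight took them through a climb of about 30 s at 4 g, about 10 s of microgravity and a pull-up at high g. The first-actuated tube was fixed directly after microgravity, and the last-actuated tube once the jet had flown level for about 1.5 min. A ground tube, kept with a team member, was fixed during the flight, and its 3 arrays share the fit and are given beside the flown values. No wild type without the transgene was analysed here. Since 1 tube gave all 3 replicates of its group, an effect of the tube cannot be told apart from that of the condition, and a p-value reflects spread within tubes alone. The labels call the replicates biological and do not say how many seedlings went into each, or whether each was a separate RNA extraction.

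RNAlater halts RNA synthesis and decay as it enters tissue, so an array records levels near the time of fixation. Changes of RNA while the fixative entered the roots were not tested. Plant roots respond to touch, tilting, heat and loss of oxygen with transcripts that appear and disappear within minutes, often encoding calcium sensors, zinc finger factors and ubiquitin ligases. Transcripts of ribosomal proteins and of sugar metabolism are known to follow the energy supply of the cell. In whole roots, fewer cells of a type and less RNA per cell cannot be told apart.

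The levels are the authors' normalized log2 expression values, so a difference of 1 is a 2-fold difference. Across genes, which are not independent replicates, arrays of the first-actuated tube correlated at 0.990 to 0.991, those of the last-actuated tube at 0.984 to 0.989, and arrays of different flown tubes at 0.978 to 0.984. On the first principal component, with 36.4% of the variance, the first-actuated arrays scored 19.8 to 21.8 and the last-actuated arrays 0.68 to 3.5. The ground arrays scored -38.6 to -5.1 there. On the second, with 17.1%, the first-actuated arrays scored 11 to 12.8 and the last-actuated arrays -24.3 to -13.4. The ground arrays, at -1.3 to 13.9, spanned the first-actuated ones. The median gene had an SD of 0.124 within the first-actuated, 0.148 within the last-actuated and 0.163 within the ground tube. The median difference of all genes, last-actuated minus first-actuated, was 0.011. The markers of shoot and photosynthetic cells gave 0 calls among 4 measured members, and 0 at an unadjusted p under 0.05 (limma), with a median difference of -0.13. Among them RCA, which encodes Rubisco activase, was at 6.56, 6.74 and 6.72 in the first-actuated and 6.38, 6.48 and 6.41 in the last-actuated arrays (difference -0.25, limma, adjusted p = 0.412). None of the 20 root cell type markers listed had a named single-gene probe set here, so the labelled tissue could not be checked against them. Measured members of a list are those with such a probe set. The 4 reference genes gave 0 calls and 1 unadjusted p under 0.05 (limma).

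In limma, 371 genes passed an adjusted p under 0.05 (Benjamini-Hochberg) between the flown tubes, or 2.24% of the genes tested, and 2220 had an unadjusted p under 0.05. Transcripts that were lower in the last-actuated roots numbered 208 (1.26%), and 163 (0.985%) were higher. The lower ones had a median difference of -0.89 and the higher ones of 0.79, and differences of at least 1 were found for 77 and 36 of them. All 371 had groups without overlap, a property shared by 2995 of all genes. Only 14 of the called genes lay under the median gene level of 2.15, though no detection calls were given to show which genes were expressed. The median level of the genes that fell was 6.34 in the first-actuated, 5.27 in the last-actuated and 4.97 in the ground roots, and that of the genes that rose was 4.34, 5.11 and 4.91. Comparisons with the ground share arrays with this one, so these medians are given side by side without a test. The number called depended on single arrays. It was 118, 133 and 100 without first-actuated replicates 1, 2 and 3, 179, 178 and 176 without last-actuated replicates 1, 2 and 3, and 495, 447 and 267 without ground replicates 1, 2 and 3. In all 9 of these fits 82 of the genes were called, 51 lower and 31 higher. All 371 kept their sign, which follows from groups without overlap, since leaving out 1 array cannot reverse such a difference.

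**Figure D1:**
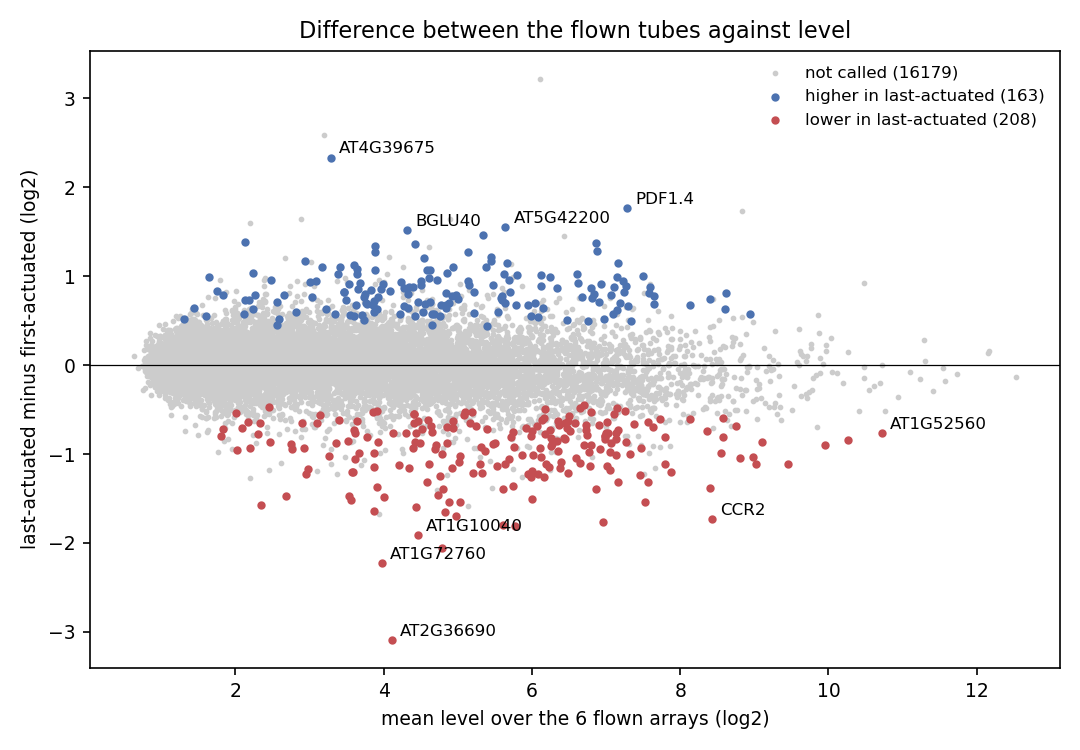
Each point is a gene, with its mean level over the 6 flown arrays (log2) on the horizontal axis and the last-actuated minus first-actuated difference (log2) on the vertical axis. Coloured points are the 163 genes called higher and the 208 called lower, and most of them lie above the median gene level of 2.15.

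The largest falls began with AT2G36690, which encodes a 2-oxoglutarate-dependent dioxygenase. Its level was 5.69, 5.60 and 5.67 in the first-actuated arrays and 2.51, 2.71 and 2.47 in the last-actuated arrays. The last-actuated values lay within the range of the ground arrays, at 1.92, 3.13 and 3.01. The difference was -3.09 ± 0.26 (SE), 8.51-fold (adjusted p = 0.00135). AT1G72760, a protein kinase gene, stood at 4.88, 5.28 and 5.10 in the first-actuated and 2.55, 2.94 and 3.11 in the last-actuated arrays. All of these were above its ground level of 1.56 ± 0.13 (SD, n = 3), and the gene fell by 2.22 (adjusted p = 0.000485). AT1G10040, an alpha/beta hydrolase gene, had 5.25, 5.44 and 5.55 in the first-actuated and 3.42, 3.61 and 3.48 in the last-actuated arrays. The tight replicates gave it an adjusted p of 0.00013 at a difference of -1.91, and its ground level was 3.53 ± 0.11. AT5G07330 fell from 7.62, 7.99 and 7.90 to 5.93, 6.20 and 6.10, and its ground level of 4.24 ± 0.32 lay below both flown tubes. AT5G13880 fell by 1.81 and AT1G73740 by 1.79, each with flown groups more than 1 apart. AT1G14642 fell from 5.54, 6.09 and 5.83 to 4.03, 4.12 and 3.12, with the lowest value in last-actuated replicate 3. The lignin gene CCR2, at 9.17, 9.32 and 9.39 in the first-actuated and 7.37, 7.81 and 7.49 in the last-actuated arrays, closed the 8 largest falls. Its call was the least secure of the 8, with an adjusted p of 0.0465 that rose to between 0.074 and 0.168 without ground replicate 3 or any 1 flown array.

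The largest rise was that of AT4G39675, a gene of unknown function. Its level was 2.23, 2.17 and 1.97 in the first-actuated arrays and 4.71, 4.26 and 4.39 in the last-actuated arrays, and 4.06 ± 0.15 on the ground. The first-actuated roots were the low group, near the median gene level of 2.15, and the rise was 2.33 ± 0.14 (SE), 5.04-fold (adjusted p = 0.00013). PDF1.4 was the 1 call among 13 measured plant defensins, which are small secreted antimicrobial peptides (7.69%, against 0.985% of all genes called higher). That list too was chosen with earlier results of these data known. PDF1.4 was at 6.05, 6.75 and 6.40 in the first-actuated and 8.22, 8.36 and 7.90 in the last-actuated arrays. Its last-actuated level also exceeded the ground level of 7.0 ± 0.49, and it rose by 1.76 (adjusted p = 0.00825, or 0.0509 without first-actuated replicate 3). AT5G42200, which encodes a RING-type ubiquitin ligase, was at 4.63, 5.05 and 4.91 in the first-actuated and 6.49, 6.60 and 6.16 in the last-actuated arrays. The ground level of 4.90 ± 0.11 lay among the first-actuated values, and the rise was 1.56 (adjusted p = 0.00157). BGLU40, a beta-glucosidase gene, rose from 3.36, 3.53 and 3.77 to 5.26, 4.59 and 5.37 (adjusted p = 0.0249). That call survived in 3 of the 9 fits without an array, and the adjusted p was 0.0539 to 0.114 without ground replicate 3, each of the first-actuated arrays and last-actuated replicates 1 and 3. AT3G27030 rose by 1.46, AT3G54880 by 1.38, AT5G02580 by 1.38 and the peroxidase gene AT1G49570 by 1.36. AT5G02580 had first-actuated levels of 1.38, 1.55 and 1.37, below the median gene, so the size of its change is uncertain.

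**Figure D2:**
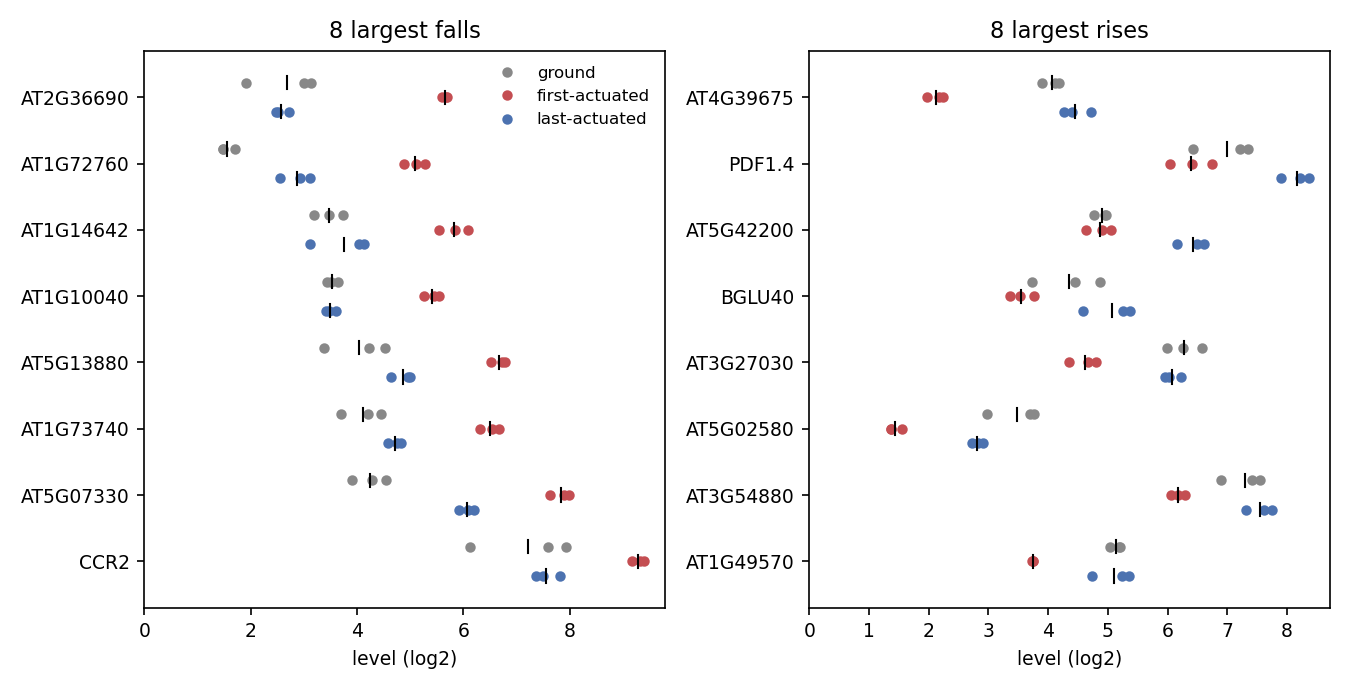
Levels (log2) of the 8 largest falls and the 8 largest rises on the 3 ground, 3 first-actuated and 3 last-actuated arrays, with a short black line at each group mean. The first-actuated and last-actuated points do not overlap for any of the 16 genes, and for AT4G39675 the 3 last-actuated arrays lie at 4.71, 4.26 and 4.39 beside a ground mean of 4.06.

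Genes of cytosolic ribosomal proteins, the parts of the translation machinery, were on the higher side in the last-actuated roots. Of 152 measured, 17 rose and none fell (11.2% called higher, against 0.985% of all genes), and 123 had a positive and 28 a negative difference. The median difference was 0.22, against 0.011 for all genes. The small subunit had 4 rises among 60 genes with a median of 0.21, and the large subunit 13 among 92 with a median of 0.23. Taken per array, with each gene centred on its mean over all 9, the list medians were -0.16, -0.19 and -0.14 in the first-actuated arrays, 0.0046, 0.11 and 0.067 in the last-actuated arrays, and 0.15, 0.058 and 0.047 in the ground arrays. The 3 first-actuated arrays were thus below all 6 others. The list was written after values of this comparison had been seen, so its count is a description.

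AT3G28900, of the large subunit, was at 4.05, 4.52 and 4.44 in the first-actuated and 5.29, 5.32 and 5.50 in the last-actuated arrays. It rose by 1.04 ± 0.15 (SE, adjusted p = 0.00911), to near its ground level of 5.19 ± 0.20. AT4G34670, of the small subunit, went from 6.61, 6.64 and 6.69 to 7.62, 7.74 and 7.55, which was above its ground level of 7.18 ± 0.19. It rose by 0.99 (adjusted p = 0.0037), and it and AT3G28900 were called in all 9 fits without an array. Further members, named after their values were seen, were the small-subunit genes AT3G02080 (0.88, adjusted p = 0.024) and AT2G36160 (0.58, 0.027) and the large-subunit gene AT4G26230 (0.87, 0.024). AT5G28060, of the small subunit, rose by 0.81 (0.0109) and AT3G09500, of the large subunit, by 0.63 (0.0127). Their calls were lost without some single flown arrays. That of AT3G02080 was lost without each first-actuated array and last-actuated replicates 2 and 3 (0.0632 to 0.102), and with the 6 flown arrays alone (0.0595). That of AT2G36160 was lost without first-actuated replicates 1 and 3 and last-actuated replicates 1 and 2 (0.0885 to 0.109), and with the 6 flown arrays alone (0.0534). That of AT4G26230 was lost without each of the 6 flown arrays (0.0564 to 0.0964), that of AT3G09500 without first-actuated replicates 1 and 2 and last-actuated replicate 2 (0.0517 to 0.0598), and that of AT5G28060 without first-actuated replicates 1 and 2 (0.0521 and 0.0546). The smallest of the 17 rises was 0.49. The count of 17 was 3, 3 and 5 without first-actuated replicates 1, 2 and 3, 7, 5 and 7 without last-actuated replicates 1, 2 and 3, and 9 with all probe sets tested. The list median stayed between 0.19 and 0.27 in the alternative fits, and a change of threshold gives no new median. Fits that leave the gene differences as they are, such as those without a ground array, cannot move it.

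**Figure D3:**
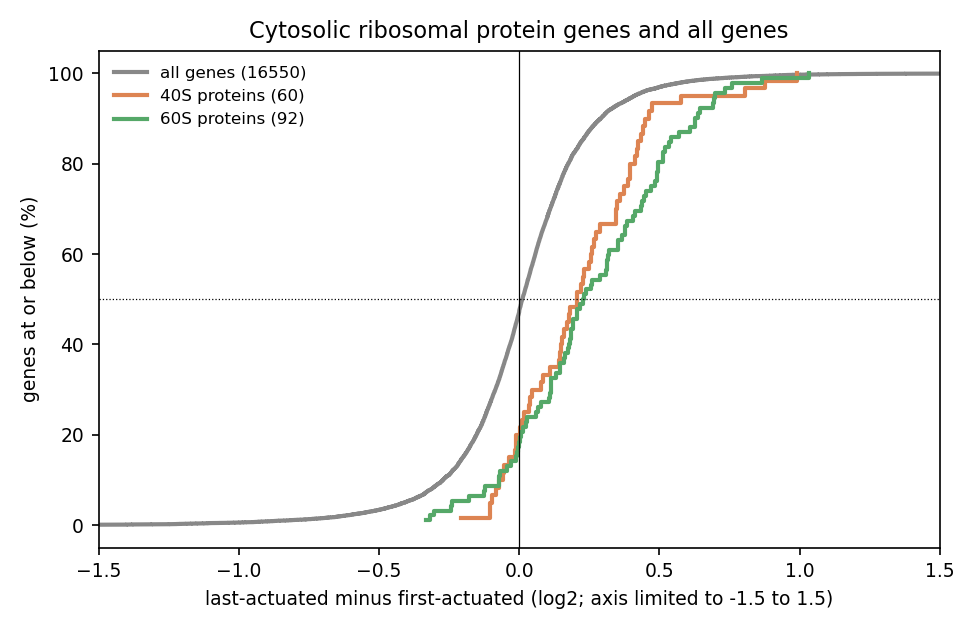
Cumulative percentage of genes against the last-actuated minus first-actuated difference (log2), for all 16550 genes, 60 small-subunit (40S) and 92 large-subunit (60S) ribosomal protein genes. Both ribosomal curves lie to the right of that of all genes, with medians of 0.21 and 0.23 against 0.011.

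Transcripts known to accumulate when sugar runs short were also on the higher side in the last-actuated roots. All 9 measured members of that list had positive differences, with a median of 0.66, and 3 of them rose (33.3%, against 0.985% of all genes). AT2G20670, a gene of unknown function, was at 4.47, 4.55 and 4.49 in the first-actuated and 5.83, 5.69 and 5.80 in the last-actuated arrays, which lay above its ground level of 5.35 ± 0.19. It rose by 1.27 ± 0.11 (SE, adjusted p = 0.00143). AT1G56220, of the dormancy and auxin associated family, rose from 6.75, 7.0 and 6.70 to 7.68, 7.78 and 7.68 (adjusted p = 0.00728), with 7.66 ± 0.17 on the ground. AT3G15630 rose from 5.97, 5.97 and 6.33 to 7.28, 6.83 and 7.23, a difference of 1.02 (adjusted p = 0.0119). Its call was lost in 4 fits, those without first-actuated replicates 1 and 2 and last-actuated replicates 1 and 3 (0.0505 to 0.064). The list medians were -0.64, -0.34 and -0.58 in the first-actuated, 0.30, 0.13 and 0.18 in the last-actuated and 0.22, 0.28 and 0.039 in the ground arrays. These 3 genes were known to be called when the list was written, so the list gives no independent count.

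Hypoxia genes, which plants switch on when oxygen falls, moved in part. Like the other lists, theirs was chosen with earlier results of these data known, so its share is a description. Of 15 measured, 3 rose (20.0%, against 0.985% of all genes) and none fell, and the median was 0.067. The 3 were AT5G42200, described above, AT4G27450 and AT1G19530. AT4G27450, also known as a gene induced in the dark, was at 6.92, 7.21 and 6.86 in the first-actuated and 8.14, 7.81 and 8.05 in the last-actuated arrays. It rose by 1.00 ± 0.13 (SE, adjusted p = 0.00605), with a ground level of 7.82 ± 0.11. AT1G19530 rose from 5.11, 5.61 and 5.14 to 6.27, 6.24 and 5.82 (adjusted p = 0.0377). Its call was lost without ground replicate 3 or any 1 array among first-actuated replicates 1 and 3 and last-actuated replicates 1 and 2 (0.0677 to 0.154), and in the fit of the 6 flown arrays alone (0.0774). In the other direction AT3G03270, a universal stress protein gene, was at 5.85, 5.62 and 5.70 against 5.24, 5.22 and 5.22, without a call (-0.49, adjusted p = 0.0608).

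Heat shock transcripts were high in both flown tubes, and 1 was called between them. Small heat shock proteins, which hold unfolding proteins in solution, gave 1 fall among 11 measured genes (9.09%, against 1.26% of all genes) and a median of -0.13. AT1G52560, an organelle-targeted member, was at 11.09, 11.12 and 11.08 in the first-actuated and 10.32, 10.33 and 10.35 in the last-actuated arrays. It fell by 0.76 ± 0.10 (SE, adjusted p = 0.00605, or 0.0789 after a further quantile normalization), and both flown tubes stood above the ground level of 7.36 ± 0.15. AT5G37670 was at 8.21, 8.07 and 8.11 in the first-actuated and 8.22, 8.60 and 8.31 in the last-actuated arrays, against 5.35 ± 0.088 on the ground (0.25, adjusted p = 0.416). AT1G53540 overlapped between the tubes, with 7.83, 8.18 and 7.97 against 7.92, 8.09 and 7.84 (-0.043, adjusted p = 0.954). The 7 other chaperones and heat stress factors gave 0 calls (2 at an unadjusted p under 0.05), and HSA32, a heat acclimation gene, was at 8.29, 8.52 and 8.41 against 7.38, 8.07 and 7.87 (-0.63, adjusted p = 0.126).

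Touch and calcium genes included STZ, a zinc finger repressor of the stress response, as the 1 fall among 7 measured (14.3%, against 1.26% of all genes). STZ was at 9.04, 9.01 and 9.08 in the first-actuated and 8.08, 8.17 and 7.92 in the last-actuated arrays, with 8.10 ± 0.42 on the ground. It fell by 0.99 (adjusted p = 0.0231), and the call was lost without any 1 flown array (0.0665 to 0.0976). AT4G27657 and AT4G27652, which lie near each other and have no known function, fell by 1.64 (adjusted p = 0.00143) and 1.11 (0.0037), and AT4G29780, a nuclease-like gene, by 1.51 (0.00157). These 3 were chosen after their values were seen and were called in all 9 fits without an array. AT4G29780 had 6.69, 6.72 and 6.86 in the first-actuated arrays, 5.42, 5.04 and 5.28 in the last-actuated arrays and 5.15 ± 0.24 on the ground. The last-actuated arrays of AT4G27657, at 3.21, 2.97 and 2.99, were lower than its ground level of 3.83 ± 0.25. CML37, a calmodulin-like gene, overlapped between the tubes (-0.37, adjusted p = 0.251), and the 7 calmodulins and calmodulin-like genes and the 7 WRKY factors gave 0 calls (1 and 3 at an unadjusted p under 0.05). The 3 ethylene response factors gave 0 calls, and so did the lists of clock, light signalling and NAC genes with 1 measured member each. WRKY22 was at 5.72, 5.32 and 5.60 against 4.94, 4.40 and 4.80, a difference of -0.83 (adjusted p = 0.109).

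**Figure D4:**
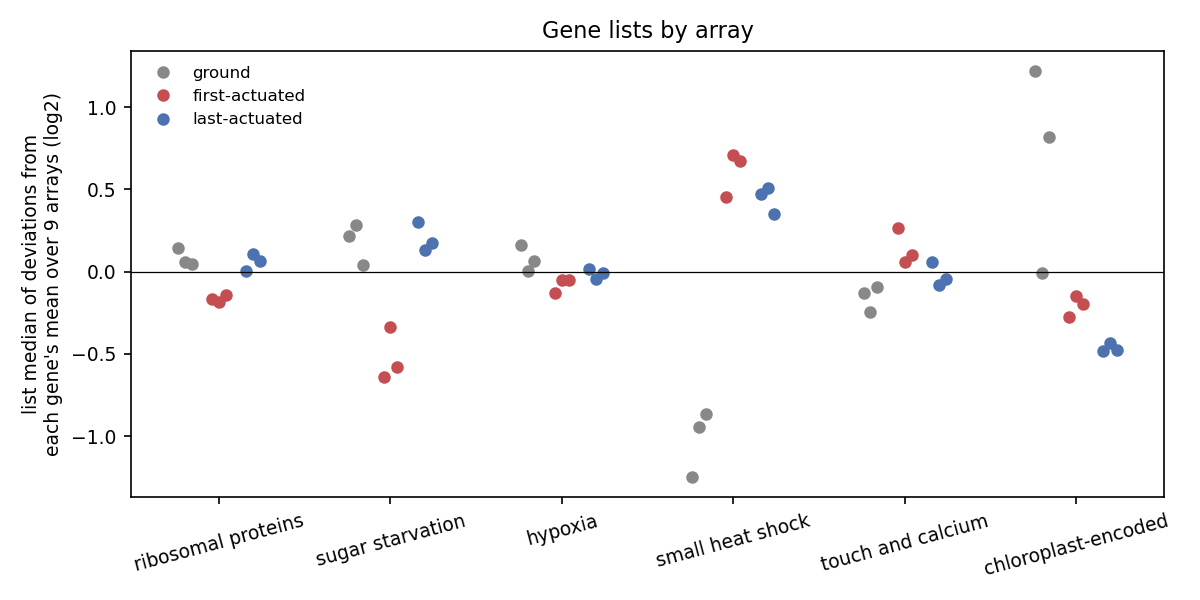
For 6 gene lists, the median over members of levels centred on the gene's 9-array mean (log2), with 1 point per array. For ribosomal proteins and sugar starvation genes the 3 first-actuated arrays lie below all others, while for small heat shock proteins both flown tubes lie above the ground arrays.

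U-box ubiquitin ligases, which mark proteins for degradation, gave 2 falls among 10 measured genes (20.0%, against 1.26% of all genes) with a list median of -0.077. As with all lists here, this one was chosen with earlier results of these data known, so the share is a description. PUB24 was at 7.64, 7.41 and 7.64 in the first-actuated and 5.85, 6.45 and 6.22 in the last-actuated arrays, and fell by 1.39 (adjusted p = 0.0175). PUB23 was at 8.20, 8.19 and 8.27 against 6.85, 6.94 and 6.92, and fell by 1.32 (0.0479). The last-actuated values lay on both sides of the ground means of 6.10 and 6.90, and the ground replicates spread widely, with SDs of 0.50 and 0.75. PUB22, the closest relative of PUB23, was at 6.09, 6.00 and 6.09 against 5.98, 5.92 and 5.94 (-0.12, adjusted p = 0.792). The call of PUB24 was lost without last-actuated replicate 1 or 3 or a single first-actuated array (0.0593 to 0.0859), and that of PUB23 without ground replicate 3 or any 1 flown array (0.0766 to 0.169).

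Several genes of secondary and primary metabolism also fell. In the phenylpropanoid and lignin list, 3 of 5 measured genes fell, where 1.26% of all genes did, and none was called higher. The other 2 had positive differences, up to 0.36, and the list median was -0.52. CCR2, given above, encodes a cinnamoyl-CoA reductase, and CCOAMT, a caffeoyl-CoA methyltransferase gene, was at 3.14, 3.23 and 3.33 in the first-actuated and 2.30, 2.22 and 2.35 in the last-actuated arrays (-0.94, adjusted p = 0.0037). ALDH2C4, for an aldehyde dehydrogenase that makes ferulic and sinapic acids, was at 7.50, 7.53 and 7.53 against 7.17, 6.91 and 6.92. It fell by 0.52 (0.0479), and its call was lost without ground replicate 3 or any 1 flown array (0.0505 to 0.154) and after a further quantile normalization (0.0803).

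Both glucosinolate importers of the vascular tissue fell. GTR1 was at 5.82, 6.05 and 5.90 in the first-actuated and 5.23, 4.78 and 5.08 in the last-actuated arrays (-0.89, adjusted p = 0.0119). GTR2 was at 7.74, 8.08 and 7.85 against 7.35, 7.27 and 7.13 (-0.64, 0.0248). They made up 2 of the 3 measured genes of glucosinolate metabolism and transport, and 2 of 13 NRT1/PTR transporters (15.4%, against 1.26% of all genes). The call of GTR1 was lost without first-actuated replicate 2 or 3 (0.0539 and 0.0593) and that of GTR2 without any 1 flown array (0.052 to 0.0908). APS3, for an ATP sulfurylase that starts sulfate assimilation, was chosen after its values were seen and fell from 5.42, 5.32 and 5.74 to 4.36, 3.69 and 4.24 (-1.40, 0.00781).

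In cytosolic glycolysis 3 of 17 measured genes fell (17.6%, against 1.26% of all genes) and none rose, with a median of -0.075. The pyruvate kinase gene AT2G36580 fell from 7.62, 7.52 and 7.58 to 6.53, 6.18 and 6.61 (-1.13 ± 0.14, SE, adjusted p = 0.00453), with 6.58 ± 0.19 on the ground. AT3G52990, the gene of another cytosolic pyruvate kinase, fell by 0.74 (0.0299) and AT5G42740, for the cytosolic phosphoglucose isomerase, by 0.66 (0.0437). Both of the latter calls were lost without any 1 flown array (0.055 to 0.133 and 0.065 to 0.160), and that of AT5G42740 also without ground replicate 3. The glycolysis, phenylpropanoid and glucosinolate lists, like those of the next paragraph, were written after values of this comparison were known.

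Among fibrillins, lipid-associated proteins of plastids, FIB and AT4G22240 fell, 2 of 10 measured (20.0%, against 1.26% of all genes, list median -0.22). FIB was at 7.77, 7.77 and 7.95 in the first-actuated and 6.78, 6.87 and 6.84 in the last-actuated arrays (-1.0, adjusted p = 0.0037). AT4G22240 was at 4.83, 4.88 and 5.04 against 3.59, 3.71 and 3.97 (-1.16, 0.00781, or 0.0507 without first-actuated replicate 3). Of 17 measured IQD genes, whose proteins bind calmodulin and microtubules, 3 rose and 1 fell (23.5%, against 2.24% of all genes called), with a median of 0.17. The gene iqd15 was at 4.62, 4.96 and 4.93 in the first-actuated and 6.10, 5.95 and 6.10 in the last-actuated arrays, rose by 1.21 (0.00453) and passed its ground level of 5.55 ± 0.26. IQD23 rose by 0.58 (0.0312) and iqd32 by 0.56 (0.0377), and IQD22 fell by 0.70 (0.027). The calls of these last 3 were lost without any 1 flown array (0.065 to 0.124, 0.0641 to 0.139 and 0.0501 to 0.114), and that of iqd32 also without ground replicate 3 (same range).

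The auxin response list gave 1 call, a fall, though 6 of its 9 members had positive differences (median 0.092). Other called hormone genes, in both directions, were picked by their values. GH3.3, whose product joins auxin to amino acids, was the 1 fall among 9 auxin response genes (11.1%, against 1.26% of all genes), at 6.76, 6.51 and 6.65 in the first-actuated and 5.46, 5.71 and 5.63 in the last-actuated arrays (-1.04, adjusted p = 0.0478). It was lost without ground replicate 3 or any 1 flown array (0.0844 to 0.169). LBD16, a lateral root factor of the same list, was at 7.36, 7.31 and 7.36 against 7.73, 7.28 and 7.57, with overlap. OPCL1, which activates jasmonate precursors, was at 5.58, 5.47 and 5.63 against 4.59, 4.23 and 4.59 (-1.09, 0.00345). SLY1, an F-box protein of gibberellin signalling, rose from 3.29, 2.88 and 3.06 to 3.95, 4.22 and 3.80 (0.91, 0.0193), and XERICO, a RING protein gene tied to abscisic acid, from 3.25, 3.78 and 3.56 to 4.25, 4.44 and 4.47 (0.86, 0.0242). OPCL1, SLY1 and XERICO were chosen after their values were seen. The call of SLY1 was lost without any 1 array among first-actuated replicates 2 and 3 and last-actuated replicates 1 and 2 (0.065 to 0.0859), and that of XERICO without first-actuated replicate 1 or 3 or a single last-actuated one (0.0582 to 0.0932). The 6 abscisic acid, cold and drought genes gave 0 calls (3 at an unadjusted p under 0.05), and KIN1 was at 5.11, 5.05 and 5.28 against 4.71, 4.44 and 4.32 (-0.66, adjusted p = 0.125).

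Signalling and growth genes that rose, likewise chosen after their values were seen, included MYBC1, a MYB-type factor, at 3.93, 3.80 and 4.09 in the first-actuated and 5.46, 4.81 and 5.17 in the last-actuated arrays (1.21, adjusted p = 0.00755). GLR3.3, a glutamate receptor-like channel gene, had closely spaced replicates at 3.33, 3.35 and 3.31 against 3.90, 3.89 and 3.85 (0.55, 0.012). SIM, an inhibitor of cyclin-dependent kinases, rose by 0.80 (0.0188), and RALFL33, for a secreted peptide of the RALF family, by 0.56 (0.045). The last of these had levels under the median gene, from 1.16 to 2.05. The call of GLR3.3 was lost without first-actuated replicate 1 or 3 (0.0521 and 0.0555), that of SIM without any 1 array among first-actuated replicates 2 and 3 and last-actuated replicates 1 and 3 (0.0631 to 0.0859), and that of RALFL33 without any array but ground replicate 1 (0.0516 to 0.156).

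Cell wall and root surface families gave 0 to 2 calls each, where 2.24% of all genes were called. Class III peroxidases, which act on walls and on lignin, had 1 rise and 1 fall among 64 measured genes (3.13%, median -0.064). AT1G49570 rose from 3.73, 3.75 and 3.75 to 4.73, 5.23 and 5.35 (adjusted p = 0.0035), and AT4G26010, a root hair peroxidase, was at 6.84, 6.37 and 6.94 against 5.79, 5.85 and 5.78 (-0.91, 0.0216). EXPA18, a root hair expansin, fell from 5.10, 4.87 and 5.50 to 4.00, 4.29 and 4.49 (-0.90, 0.0454). It was the 1 call among 24 expansins (4.17%) and among 4 root hair markers (25%). Of these 4 markers, 3 had a positive and 1 a negative difference, with a median of 0.11. The call of AT4G26010 was lost without first-actuated replicate 1 or 3 or a single last-actuated one (0.0726 to 0.0984), and that of EXPA18 without any array but ground replicate 2 (0.0515 to 0.154). BGLU27 fell by 1.58 (0.00804) and BGLU40 rose among 24 beta-glucosidases (8.33%), with last-actuated levels of BGLU27 at 1.52, 1.70 and 1.44, under the median gene. The 10 xyloglucan transferases gave 0 calls (1 at an unadjusted p under 0.05), with XTH32 at 3.40, 3.51 and 3.51 against 4.33, 3.91 and 3.91 (0.57, adjusted p = 0.0602). No call was made among 55 UGT glycosyltransferases, 15 glutathione transferases, 16 SWEET transporters or 9 cellulose synthase genes (9, 4, 2 and 3 at an unadjusted p under 0.05). The cytochromes P450 gave 1 fall among 24 (CYP71B23, -0.78, 0.0299, and 0.0589 to 0.109 without ground replicate 3, first-actuated replicate 1 or 3 or a single last-actuated array). Of 9 bHLH factors, BHLH92 fell by 0.72 (0.0376), a call lost without ground replicate 3, last-actuated replicate 2 or 3 or a single first-actuated array (0.0607 to 0.139).

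Most chloroplast-encoded transcripts had somewhat lower levels in the last-actuated roots. Of 63 measured, 51 had a negative difference, with a median of -0.27, but 1 rose and 1 fell past the threshold (3.17%, against 2.24% of all genes). The list medians were -0.27, -0.15 and -0.20 in the first-actuated and -0.48, -0.43 and -0.48 in the last-actuated arrays, so the flown groups did not overlap. In the ground arrays they were 1.22, -0.0050 and 0.82. The photosystem I gene psaB was at 10.30, 10.55 and 10.35 in the first-actuated and 9.34, 9.51 and 9.64 in the last-actuated arrays and fell by 0.90 (adjusted p = 0.0206, or 0.0995 after cyclic loess), while psbM, for a small subunit of photosystem II, went from 5.40, 5.53 and 5.43 to 6.04, 6.23 and 6.12 and rose by 0.67 (0.0268). The call of psaB was lost without last-actuated replicate 1 or 2 or a single first-actuated array (0.0702 to 0.0866), and that of psbM without any 1 flown array (0.065 to 0.108).

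Some large differences were not called. Of all genes, 8 differed by at least 1.5 without a call, and 4 of these, chosen after their values were seen, were high in last-actuated replicates 1 and 3 and not in replicate 2. ICL, which encodes isocitrate lyase of the glyoxylate cycle, known from seedlings that live on stored oil, was at 4.54, 4.24 and 4.72 in the first-actuated and 9.58, 4.36 and 9.22 in the last-actuated arrays. Its ground arrays, at 10.97, 5.44 and 10.17, were low in replicate 2 as well, and the difference of 3.22 between the flown tubes had an adjusted p of 0.411. CP1, a cysteine protease gene, was at 2.23, 1.96 and 1.99 against 4.85, 1.70 and 4.56, with 4.58, 1.76 and 3.59 on the ground. GH9B15, a glycosyl hydrolase gene, was at 1.94, 2.03 and 1.75 against 6.06, 1.80 and 5.63, and SAG29, a SWEET family sugar transporter known from senescence, at 1.22, 1.48 and 1.50 against 4.24, 1.44 and 3.34. On the ground these last genes stayed at 1.74 to 1.87 and 1.16 to 1.55, so replicates 1 and 3 of the last-actuated tube were high alone. AT3G63052, also among the 8, was not split in this way, at 7.71, 8.17 and 8.01 against 8.98, 10.31 and 9.80 (1.74, adjusted p = 0.0646), and its flown groups did not overlap. Last-actuated replicate 2 was lower than both other replicates by over 1 for 11 genes and higher by over 1 for another 11, and ground replicate 2 for 97 and 19. An SD over 1 was found for 4 genes in the first-actuated, 12 in the last-actuated and 71 in the ground tube.

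Of 8269 pairs of adjacent genes with both members tested, 358 held at least 1 called gene and 5 held 2. The 2.24% of all genes called is a share of single genes, and no expected number of pairs was computed. The count of 5 is therefore not read as a clustering of called genes. Both members moved in the same direction in all 5 pairs. The pairs included AT1G14640 (-0.92) with AT1G14642 (-2.06), AT1G32960 (-0.65) with AT1G32970 (-1.70), both subtilase genes, and AT3G27027 (1.10) with AT3G27030 (1.46). Related neighbours of near-identical sequence may share probes, which was not tested.

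A set of probe sets with no gene name separated the first-actuated arrays from the others by more than most genes did. The first 20 probe sets of the deposited table, with IDs 13320001 to 13320039, hold 10 distinct rows of values, and on all 10 the 3 first-actuated arrays were above the 3 last-actuated and the 3 ground arrays. Probe set 13320005 read 7.13, 7.23 and 7.11 in the first-actuated and 2.47, 3.36 and 3.81 in the last-actuated arrays, with 3.10, 2.62 and 4.87 on the ground. Probe set 13320017 read 6.12, 6.35 and 6.36 against 3.66, 3.31 and 3.65, with 2.89, 3.08 and 3.03 on the ground. In the fit of all probe sets, 9 of the 10 distinct rows were called lower in the last-actuated arrays (the other, 13320019, had an adjusted p of 0.102), with a median difference of -2.63 over the 10. The sources used here do not say what these probe sets detect, or whether they belong to the plant's genes or to the controls of the array, and their part in the differences between genes was not tested.

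**Figure D5:**
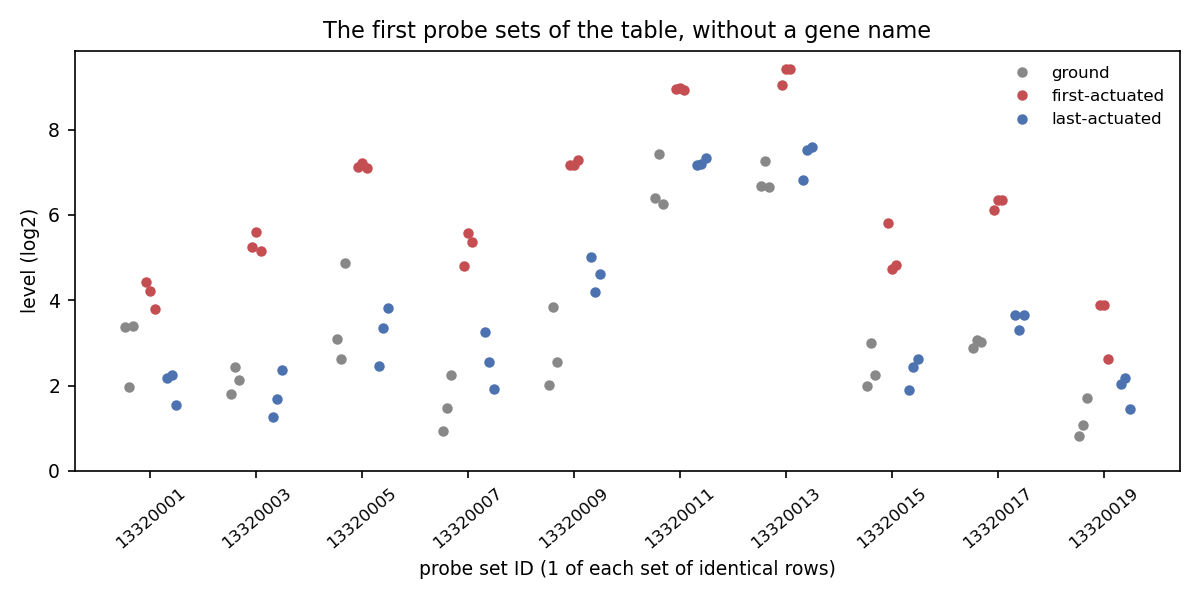
Levels (log2) of the 10 distinct rows among the first 20 probe sets of the table, none with a gene name, on the 9 arrays. On each of the 10 the 3 first-actuated points lie above the last-actuated and ground points.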

How the data were processed

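RNA from 9 root samples was measured on AraGene 1.0 ST arrays with 1 colour. The deposited values are log2 expression values that the authors made with RMA, per the submitters' processing notes, which also name oligo, limma, R 4.0.0 and TAIR10. No detection calls were given, and the number of arrays limits the precision. Of 38408 probe sets, 16722 had 1 gene name, 759 several and 20927 none here. The 16722 gave 16550 genes, and 146 genes with several probe sets were represented by the brightest on average over all arrays.

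All 9 arrays were fitted in limma 3.58.1 (R 4.3.3; statmod 1.5.0) as 3 groups, with eBayes without trend and p-values adjusted by Benjamini-Hochberg across the 16550 genes. Called means an adjusted p under 0.05. Tables and plots used Python 3.11.15, pandas 2.3.3 and matplotlib 3.10.9. The pipeline was tested on simulated data.

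Named are the called genes with the 8 largest rises and 8 largest falls, up to 2 called members of each of 49 lists with the smallest p, or, without a call, at most 1 member as a value. Of the lists, 35 had at least 3 measured members, 3 had 1 or 2 and 11 had none. Members without a named single-gene probe set were left out. The phenylpropanoid list thus kept 5 of 30 members and the glucosinolate list 3 of 22. Members and lists were chosen with earlier results of these data known. Promoter motif counts were not run. Replicate numbers did not pair the flown arrays, and 22 other settings were tried.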

Additional observations from a re-analysis of the deposited data

Results flagged for a closer look

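Probe sets without a gene name also differed between the flown tubes. In a fit of all 38408 probe sets, 356 of the 20927 without a name were called (1.70%), 142 higher and 214 lower in the last-actuated arrays, against 231 of the 16722 with 1 gene (1.38%) and 9 of the 759 with several genes (1.19%). They were looked at because no comparison of named genes uses them.

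Of the first 20 probe sets of the table, 17 were called lower in the last-actuated arrays and none higher. Identical values recur among them, with 5 rows that each appear 3 times, so the 20 hold 10 distinct rows. The brightest, 13320013, read 9.04, 9.41 and 9.42 in the first-actuated, 6.81, 7.52 and 7.58 in the last-actuated and 6.68, 7.26 and 6.64 in the ground arrays.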

How the results depend on the processing

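The count of 371 called genes was 597 with array weights (261 higher and 336 lower), 231 when all probe sets were tested (99 and 132), 94 at an adjusted p under 0.01 (34 and 60) and 113 with a difference of at least 1 besides (36 and 77). Fits without 1 array called 100 to 495 genes, 44 to 197 of them higher and 55 to 298 lower. The 17 ribosomal rises became 9 with all probe sets tested, 2 at the stricter threshold, 1 with a difference of at least 1, and 3 to 19 without 1 array. A stricter rule lowers a count by construction, and the cause of the other shifts was not tested. The other 9 settings called 303 to 498 genes.

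Replicate numbers were shared by the groups. Deviations of same-numbered first-actuated and last-actuated arrays correlated at only 0.0055, 0.017 and 0.031, so no pairing of the flown arrays was seen. Ground arrays were not part of this check, and 4 genes were low in replicate 2 of both the last-actuated and the ground tube. With a replicate block 303 genes were called, 128 higher and 175 lower.

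Of 37 list medians, 13 had both signs over the settings, and no sign is read from them. That of the expansins was -0.010 after a further quantile normalization, -0.013 after cyclic loess and -0.013 to 0.025 without 1 array. That of cytochromes P450 was -0.28 over genes above the median level. Without 1 array the median of NRT1/PTR transporters ranged from -0.043 to 0.043, of glycolysis from -0.092 to 0.039 and of beta-glucosidases from -0.023 to 0.054. The others were the lists of SWEET transporters, calmodulins, cellulose synthases, glutathione transferases, other chaperones, ethylene response factors, root hair markers and abscisic acid genes. The cause was not tested. Genes near the array background have uncertain sizes, since no detection calls were given.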
